A study of Mus musculus with 20 samples.

Results

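The collagen genes are described here as measured in the white matter of mice with and without Zdhhc9, from the corpus callosum and the optic nerve. They are the 44 genes, of 46517 in the gene table, whose symbol is Col, a number, the letter a and a number. The rule reads names alone, and the family was taken up with earlier results of these data known. RNA sequencing measured messenger RNA in 20 libraries. Callosal white matter, which carries fibres between the hemispheres, gave 6 libraries of Zdhhc9 knockout and 5 of wild-type mice, dissected from frozen coronal brain sections. Optic nerve, which carries the axons of the retina, was flash frozen after dissection and gave 5 knockout and 4 wild-type libraries. The labels give no driver line, drug, age or sex, and the series' design text speaks of a knockdown. Zdhhc9 encodes an enzyme that adds palmitate to proteins. In library names KO and WT give the genotype, CCg the callosum and ON the nerve. The level of Zdhhc9 was 40.8 to 56.02 CPM (the count relative to the library total) in the knockout and 153 to 201 CPM in the wild-type callosum libraries, and 35.1 to 51.46 against 115 to 150.4 CPM in the nerve libraries, so the libraries matched their genotype labels.

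Collagens are the main structural proteins of the extracellular matrix. Their chains share stretches in which glycine recurs at a fixed spacing, and chains assemble in groups of 3 into a helix that then builds fibrils, sheets or filaments. In the central nervous system the tissue between cells holds little fibrillar collagen, which is known instead from the meninges, from nerve sheaths and from the walls of vessels, while basement membrane collagens line vessels and the glial surface. The optic nerve keeps a meningeal sheath along its length, and the callosum lies deep in the brain without one.

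All levels below are CPM scaled with TMM factors over the 20 libraries, whose totals ran from 15401130 to 26095622 estimated counts. The labels do not say whether libraries of a group came from separate animals, so the p-values measure the spread between these libraries. The collagen genes together took 0.0589% to 0.0819% of the estimated counts in the callosum libraries and 0.271% to 0.539% in the nerve libraries. Of the 44 genes, 40 had counts above 0 in every library. The exceptions were Col10a1, Col6a6, Col17a1 and Col19a1. Col10a1, the collagen of growth plate cartilage, reached at most 0.158 CPM and entered no test. Markers of other cell types set some libraries apart. The sum of 5 photoreceptor markers was 64.0 CPM in knockout nerve library KO_ON_719856 and 7.43 to 12.7 CPM in the other 19 libraries. Without that library the knockout tissue comparison called 33 collagen genes in place of 32, and the nerve genotype comparison called 0 as before. The sum of 5 choroid plexus markers was 59.5 CPM in wild-type callosum library WT_CCg_30 and 9.81 to 26.98 CPM in the other callosum libraries, and without it the wild-type tissue comparison called 28 collagen genes and the callosum genotype comparison 0, as with it.

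The sequence that makes a gene a collagen can be read in its coding sequence. A glycine codon starts with GG, so a collagen stretch is a run of 9-base units that each begin with GGN. The first 10 units of the longest such run are shown for 2 fibrillar chains, 1 basement membrane chain and 1 membrane-bound chain, because they show the long unbroken run of a fibrillar chain beside the short runs of 2 other kinds of collagen. They were read from the GENCODE M21 coding transcript with the longest coding sequence, 5′ to 3′. The capitals mark the glycine codon that opens each unit, and a glycine codon elsewhere in a unit is in lower case.
Col1a1: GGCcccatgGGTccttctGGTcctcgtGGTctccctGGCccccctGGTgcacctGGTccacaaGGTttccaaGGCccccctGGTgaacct
Col3a1: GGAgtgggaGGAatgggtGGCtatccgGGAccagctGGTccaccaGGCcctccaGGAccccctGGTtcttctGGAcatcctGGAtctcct
Col4a1: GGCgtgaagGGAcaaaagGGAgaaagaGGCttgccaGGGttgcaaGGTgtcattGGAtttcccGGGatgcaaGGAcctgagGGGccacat
Col25a1: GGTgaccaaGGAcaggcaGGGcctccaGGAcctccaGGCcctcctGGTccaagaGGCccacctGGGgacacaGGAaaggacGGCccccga
The unbroken run was 338 units long in Col1a1 and 344 in Col3a1, but 40 in Col4a1 and 40 in Col25a1. The 9 chains of types I, II, III, V and XI had runs of 337 to 344 units, the fibrillar chains Col24a1 and Col27a1 had 216 and 217, and in no other collagen gene was the run longer than 113. The 6 type IV chains had their units in 22 to 27 separate runs, the longest of 39 to 66 units.

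Several collagen genes lie next to each other. All 6 type IV genes stand in head-to-head pairs, so that the 2 genes of a pair start close together and are read in opposite directions. In the GENCODE M21 annotation of GRCm38, the assembly also called mm10, Col4a4 (chr1:82448423-82586849, minus strand) and Col4a3 (chr1:82586921-82722059, plus strand) are 71 bases apart. Col4a1 (chr8:11198423-11312826, minus strand) and Col4a2 (chr8:11312805-11449287, plus strand) overlap by 22 bases, and Col4a6 and Col4a5 on the X chromosome are 1308 bases apart. The promoter windows below are shown because each holds the start of both genes of a pair. They run from 250 bases before to 50 after the start in RefSeq on GRCm38.p6, and are printed 5′ to 3′ along the strand of the gene named first. In the window chr1:82586800-82587099 the capitals mark the 71 bases between the 2 genes, and in the window chr8:11312555-11312854 they mark the 22 bases that the 2 genes share.
Col4a4 and Col4a3: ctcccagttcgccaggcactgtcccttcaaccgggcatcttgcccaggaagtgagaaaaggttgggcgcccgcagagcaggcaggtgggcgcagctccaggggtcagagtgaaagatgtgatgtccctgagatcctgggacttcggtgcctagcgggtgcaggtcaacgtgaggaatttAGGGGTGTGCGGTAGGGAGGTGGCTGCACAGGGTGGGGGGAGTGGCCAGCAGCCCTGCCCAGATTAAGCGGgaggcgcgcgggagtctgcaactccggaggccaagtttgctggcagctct
Col4a2 and Col4a1: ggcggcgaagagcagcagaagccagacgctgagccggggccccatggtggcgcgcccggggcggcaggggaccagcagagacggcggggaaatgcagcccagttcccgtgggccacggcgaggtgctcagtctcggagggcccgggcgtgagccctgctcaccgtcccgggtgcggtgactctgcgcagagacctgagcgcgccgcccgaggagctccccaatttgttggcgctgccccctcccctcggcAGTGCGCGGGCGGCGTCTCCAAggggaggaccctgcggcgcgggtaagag
The sequence of the Col4a4 window held none of the 3 motifs searched, which were TATAAA as in a TATA box, CCAAT as in the box of that name, and GGGCGG as in a GC box, each read on both strands. The Col4a2 window held the GC box motif 3 times and CCAAT once.

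The promoters of 2 fibrillar genes are printed because these genes were among the most different between the tissues. Capitals mark the same 3 motifs on either strand in the RefSeq windows of Col3a1 (chr1:45311288-45311587, plus strand) and Col1a2 (chr6:4505368-4505667, plus strand).
Col3a1: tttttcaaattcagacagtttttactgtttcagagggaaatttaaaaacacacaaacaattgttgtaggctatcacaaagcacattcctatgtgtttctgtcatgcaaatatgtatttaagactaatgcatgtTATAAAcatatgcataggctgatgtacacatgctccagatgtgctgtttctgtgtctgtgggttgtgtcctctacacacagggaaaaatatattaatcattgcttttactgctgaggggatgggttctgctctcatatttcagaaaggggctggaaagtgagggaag
Col1a2: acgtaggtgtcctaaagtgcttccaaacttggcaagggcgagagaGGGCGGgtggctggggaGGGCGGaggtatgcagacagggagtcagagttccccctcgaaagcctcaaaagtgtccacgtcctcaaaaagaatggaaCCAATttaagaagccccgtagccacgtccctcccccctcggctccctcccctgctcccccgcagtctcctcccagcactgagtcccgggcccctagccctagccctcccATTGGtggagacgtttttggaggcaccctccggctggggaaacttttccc
The Col3a1 window held 1 TATAAA, and the Col1a2 window held CCAAT 2 times and the GC box motif 2 times. RefSeq windows were at hand for 35 of the 44 genes, 38 windows in all. TATAAA was in 5 of these 38 and in 13.6% of all 32851 promoter windows of the same length. CCAAT was in 13 of 38 and in 37.4% of all, and GGGCGG in 23 of 38 and in 35.7% of all. A match describes the letters in the window and is not a binding site.

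The optic nerve carried far more collagen transcript than the corpus callosum, in both genotypes. In wild-type mice 28 of 43 tested collagen genes differed between the tissues, 24 higher in the nerve and 4 higher in the callosum. The call needed an adjusted p under 0.05 over all genes, by edgeR's quasi-likelihood test with Benjamini-Hochberg adjustment, and a change of 1 or more on the log2 scale in either direction. By that rule 26.2% of all 16440 tested genes differed, 13% higher and 13.2% lower in the nerve. In the knockout mice 32 of 43 differed, 28 higher and 4 lower, where 30.1% of all genes did (14.9% higher, 15.2% lower). The median log2 fold change of the collagen genes was 1.35 in wild type and 1.43 in knockout, against -0.03 and -0.00 over all tested genes. The 2 comparisons share no library, and 27 collagen genes were called in the same direction in both, 24 higher and 3 lower in the nerve. Whether the genotypes differ in these tissue contrasts is tested further on.

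**Figure D1:**
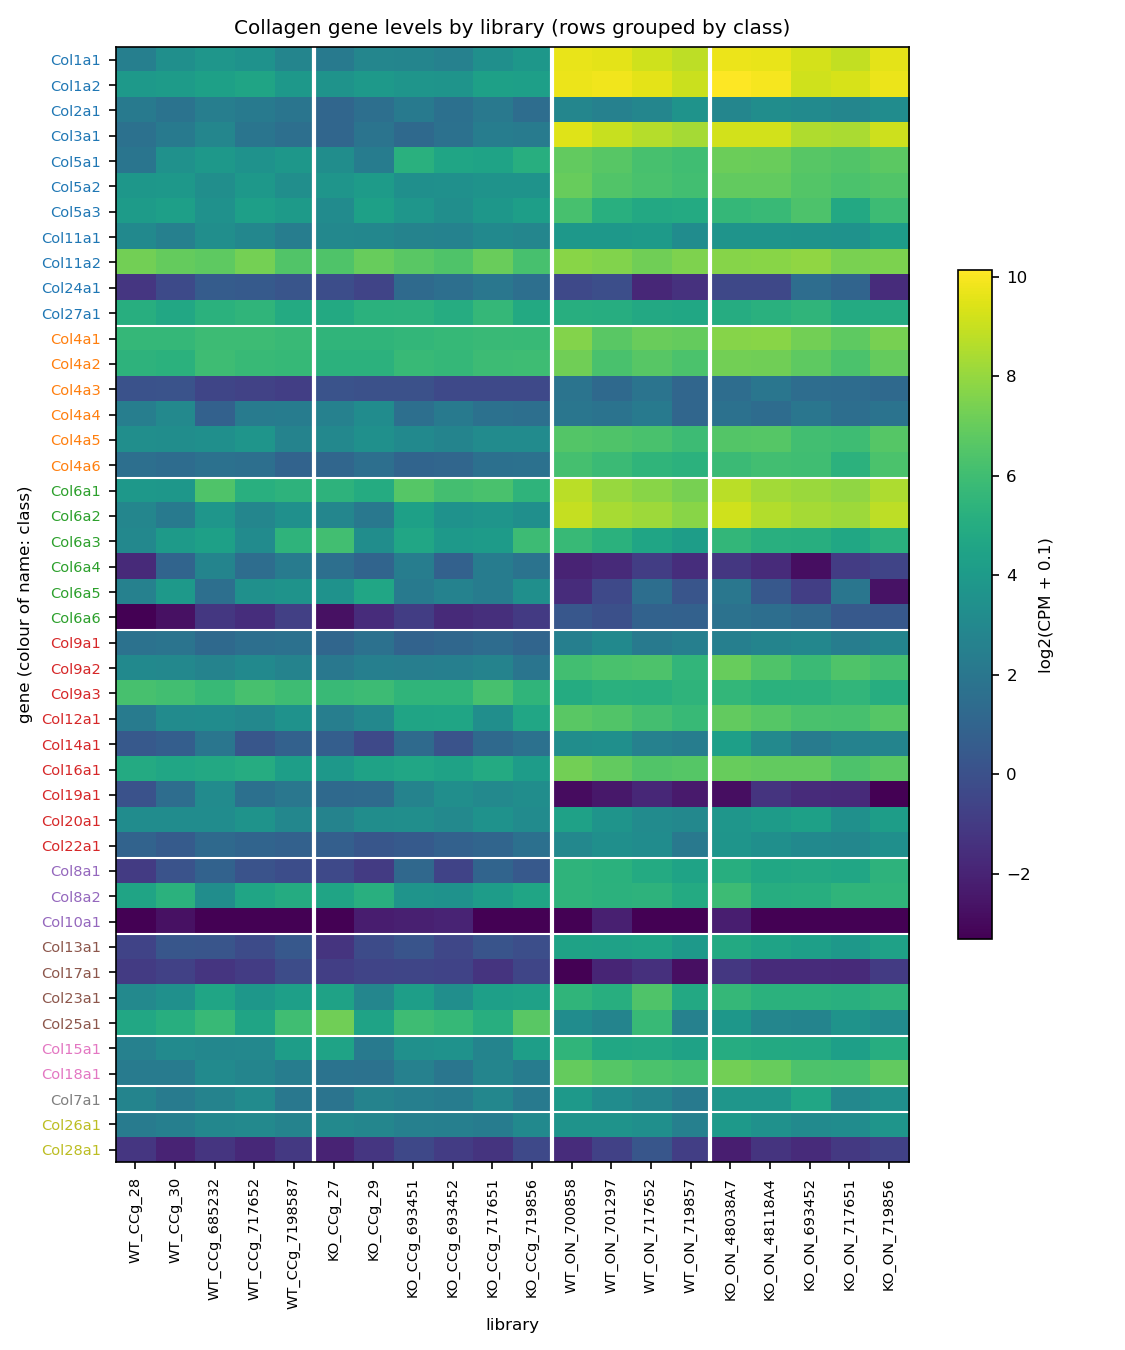
Level of the 44 collagen genes (rows, grouped by class in the order fibrillar, basement membrane network, beaded filament, FACIT, short-chain network, transmembrane, multiplexin, anchoring fibril and other) in the 20 libraries (columns, CCg corpus callosum, ON optic nerve, KO knockout, WT wild type), as log2 of CPM plus 0.1. The nerve columns are brighter for Col1a1, Col1a2, Col3a1, Col6a1 and Col6a2, and darker for Col19a1 and Col6a4.

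The ranges of the libraries were compared next. In wild type every nerve library stood above every callosum library for 26 of the tested collagen genes, and the reverse held for 4. Over all tested genes the shares were 22.1% and 20.4%. In knockout the ranges were apart for 29 and 4 collagen genes, with 23.2% and 20.2% over all genes. Some cell type markers moved in parallel. All 14 fibroblast and meningeal markers were called higher in the nerve in both genotypes, with a summed level of 33.1 to 81.5 CPM over the callosum and 2647 to 4985 CPM over the nerve libraries. Of these markers Dpt and Crabp2 were too low to test in the genotype comparison of the callosum. Endothelial markers (3 of 8 called higher in wild type and 4 of 8 in knockout) summed to 264 to 330 CPM in callosum and 526 to 671 in nerve. Mural cell markers (5 of 9 called higher in both genotypes) summed to 210 to 317 and 818 to 1346 CPM. Summed markers of astrocytes, microglia and oligodendrocyte precursors were also higher in the nerve. Oligodendrocyte markers (0 of 8 called in either genotype) overlapped between the tissues. Their wild-type sums were 49996 to 83554 CPM in callosum and 73625 to 89144 CPM in nerve. The knockout sums were 31347 to 61322 and 56415 to 80517 CPM. Astrocyte markers (3 of 6 called higher and 1 lower in both genotypes) summed to 2846 to 4084 CPM in callosum and 7739 to 11357 in nerve. Microglia markers (4 of 6 called higher in wild type and 5 of 6 in knockout) summed to 236 to 343 and 582 to 962 CPM, and 4 markers of oligodendrocyte precursors (0 called in wild type and 1 higher in knockout) to 146 to 218 and 251 to 319 CPM. Fewer cells of a type and less RNA per cell cannot be told apart in such bulk tissue, and the part of these cell types in the collagen differences was not tested.

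**Figure D2:**
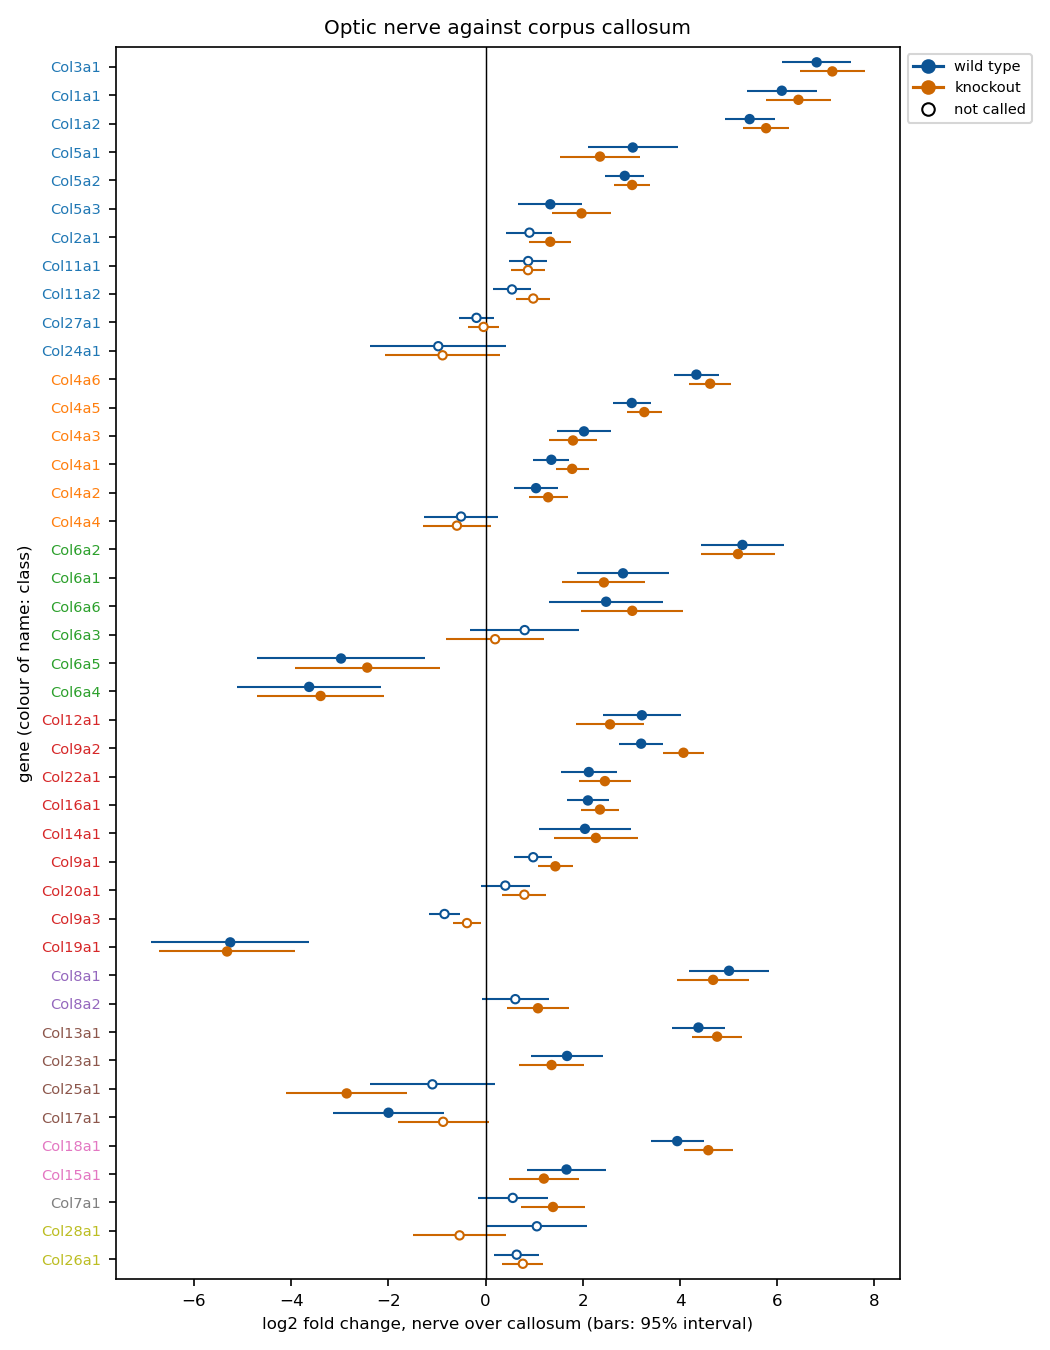
Log2 fold change of optic nerve over corpus callosum for the 43 tested collagen genes in wild type (blue) and knockout (orange), with 95% intervals. Filled points were called (adjusted p under 0.05 and a log2 fold change of 1 or more in size), open points were not; Col3a1, Col1a1 and Col1a2 lie farthest to the right and Col19a1 farthest to the left.

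Fibrillar collagens build the cables of connective tissue. Type I collagen, made of 2 chains from Col1a1 (chr11:94936224-94953042) and 1 from Col1a2 (chr6:4504814-4541544), is the main collagen of bone, tendon, skin and fibrous sheaths. Col1a1 measured 5.41, 6.90, 10.2, 11.6 and 13.3 CPM in the 5 wild-type callosum libraries and 444, 574, 769 and 822 CPM in the 4 wild-type nerve libraries (log2 fold change 6.09, SE 0.34, adjusted p = 2.8e-11 by edgeR's quasi-likelihood test). In the knockout it measured 4.499 to 13.97 with a median of 6.99 CPM in callosum and 472, 616, 759, 817 and 858 CPM in nerve (log2 fold change 6.44, SE 0.32, adjusted p = 2.13e-12). The lowest of the nerve libraries, at 444 CPM, stood far above the highest of the callosum libraries, at 13.97 CPM. Col1a2 followed with 14.1, 15.004, 16.4, 20.003 and 23.2 CPM in wild-type callosum and 530.2, 769, 845 and 926 CPM in wild-type nerve (log2 fold change 5.43, SE 0.25, adjusted p = 1.16e-12). Its knockout callosum libraries ran from 12.02 to 19.8 with a median of 13.8 CPM, and its knockout nerve libraries measured 578, 629.9, 854, 972 and 1122 CPM (log2 fold change 5.77, SE 0.23, adjusted p = 9.05e-14). Col3a1 (chr1:45311538-45349706), the type III collagen of pliable tissues such as vessel walls, had the highest fold change of any collagen gene in both genotypes. It measured 2.89, 3.15, 3.67, 4.51 and 7.13 CPM in wild-type callosum and 324, 399, 512 and 700.0 CPM in wild-type nerve (log2 fold change 6.81, SE 0.34, adjusted p = 5.49e-12). In the knockout it ran from 2.10 to 5.04 with a median of 3.31 CPM in callosum and measured 349, 376, 543, 589 and 597 CPM in nerve (log2 fold change 7.13, SE 0.32, adjusted p = 5.48e-13).

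The type V chains, which start and thin type I fibrils, also rose in the nerve. The log2 fold changes were 3.03 (SE 0.44) in wild type and 2.35 (SE 0.39) in knockout for Col5a1, 2.86 (SE 0.19) and 3.01 (SE 0.18) for Col5a2, and 1.33 (SE 0.32) and 1.97 (SE 0.29) for Col5a3, all called. The Col5a3 call in wild type did not hold without wild-type nerve library WT_ON_700858, where the log2 fold change was 0.91. The cartilage-type fibrillar chains were closer between the tissues. Col11a2 (chr17:34039437-34066685) was high in both, at 88.4, 109, 125, 154 and 162 CPM in wild-type callosum and 148, 187, 193 and 215 CPM in wild-type nerve, and its log2 fold changes of 0.54 and 0.98 did not reach 1. Leaving out 1 of 4 knockout libraries (KO_CCg_29, KO_CCg_717651, KO_ON_717651 or KO_ON_719856) took the knockout value to 1.02 to 1.07 and to a call. Col11a1 likewise had 0.88 and 0.87, short of the fold threshold, and passed it in wild type without callosum library WT_CCg_685232 (1.02) or without nerve library WT_ON_719857 (1.04). Col2a1 was called in the knockout (1.33) but not in wild type (0.90, and 1.05 with a call when wild-type nerve library WT_ON_701297 was left out). Col27a1 was not called, with 27.2 to 44.2 CPM in wild-type callosum and 26.1 to 35.1 CPM in wild-type nerve and a 95% interval of the log2 fold change of -0.55 to 0.17. Col24a1 was under 4 CPM in every library and its log2 fold changes of -0.97 and -0.89 were not called; without knockout nerve library KO_ON_693452 the knockout value was -1.40 and called. Of the 11 fibrillar genes, 6 were thus called higher in the nerve in wild type and 7 in knockout, and none was called lower.

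Type IV collagen forms the mesh of basement membranes. Col4a1 and Col4a2, the chains present in nearly all basement membranes, measured 48.9, 49.3, 55.4, 58.98 and 60.6 CPM and 38.3, 41.1, 51.7, 54.3 and 62.03 CPM in wild-type callosum. In wild-type nerve they measured 104, 123, 134 and 198 CPM and 77.8, 80.6, 97.8 and 150.1 CPM. Every nerve library was above every callosum library for both. The log2 fold changes were 1.35 (SE 0.18) in wild type and 1.78 (SE 0.16) in knockout for Col4a1, and 1.04 (SE 0.21) and 1.29 (SE 0.19) for Col4a2. The Col4a2 value in wild type lay close to the fold threshold and fell below it without wild-type callosum library WT_CCg_28 (0.98), callosum library WT_CCg_30 (0.96) or nerve library WT_ON_700858 (0.79). Because the 2 genes overlap at their starts and the strand setting of the counting is not given in the sources used here, reads from the shared bases cannot be assigned with certainty.

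The X-linked pair rose more. Col4a6 (chrX:141165403-141474076), a chain known from smooth muscle and skin basement membranes, measured 1.86, 2.56, 2.88, 2.90 and 3.09 CPM in wild-type callosum and 39.3, 45.2, 58.6 and 71.8 CPM in wild-type nerve (log2 fold change 4.34, SE 0.22, adjusted p = 5.21e-12). Its knockout levels ran from 1.94 to 3.09 with a median of 2.49 CPM in callosum and were 40.48, 57.3, 64.8, 66.9 and 80.04 CPM in nerve (log2 fold change 4.62, SE 0.20, adjusted p = 3.76e-13). Its partner Col4a5 had log2 fold changes of 3.01 (SE 0.19) and 3.27 (SE 0.17). The Col4a3 and Col4a4 pair, chains known from the kidney, the inner ear and the eye, differed within the pair. Col4a3 was low but higher in the nerve, at 0.455, 0.541, 0.594, 0.959 and 0.974 CPM against 2.04, 2.30, 3.46 and 3.53 CPM in wild type (log2 fold change 2.02, SE 0.26, adjusted p = 2.02e-06). Col4a4, which starts 71 bases away as the first of the 2 shared windows shows, overlapped between the tissues at 1.70, 4.79, 4.84, 5.21 and 7.85 CPM against 2.04, 3.39, 3.80 and 4.45 CPM (log2 fold change -0.51, SE 0.37, adjusted p = 0.269). The knockout gave 1.80 (SE 0.23) for Col4a3, called, and -0.59 (SE 0.33) for Col4a4, not called. The value for Col4a4 shrank to -0.27 without wild-type callosum library WT_CCg_30, to -0.29 without wild-type nerve library WT_ON_719857 and, in the knockout, to -0.31 without callosum library KO_CCg_29. In all, 5 of 6 type IV genes were called higher in the nerve in each genotype.

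Type VI collagen forms beaded filaments around cells, from the chains of Col6a1, Col6a2 and a longer chain coded by Col6a3 or by one of its relatives Col6a4, Col6a5 and Col6a6. Col6a2 (chr10:76595762-76623630) measured 4.56, 7.18, 7.19, 10.501 and 13.1 CPM in wild-type callosum and 216, 288, 329 and 502 CPM in wild-type nerve (log2 fold change 5.28, SE 0.41, adjusted p = 2.38e-09). Knockout libraries ran from 4.01 to 19.7 with a median of 10.97 CPM in callosum and were 286, 315, 388, 443 and 582 CPM in nerve (log2 fold change 5.19, SE 0.37, adjusted p = 3.86e-10). Col6a1, its neighbour on the same strand of chromosome 10, was also called, at 2.83 (SE 0.46) and 2.43 (SE 0.41), with a wide spread in callosum, from 13.8 to 85.6 CPM in wild type and 30.99 to 95.4 CPM in knockout. Col6a3 overlapped between the tissues, at 7.81, 8.73, 15.9, 19.7 and 43.4 CPM in wild-type callosum and 17.98, 23.6, 39.2 and 53.1 CPM in wild-type nerve, and its log2 fold changes of 0.80 (SE 0.54) and 0.20 (SE 0.48) were not called. Without wild-type callosum library WT_CCg_7198587 its wild-type value was 1.36 and called, and without wild-type nerve library WT_ON_700858 it was 0.49.

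The relatives of Col6a3, which follow each other on one strand of chromosome 9, split by tissue. Col6a6 was higher in the nerve, at 0, 0.0517, 0.240, 0.361 and 0.494 CPM against 0.879, 1.15, 1.69 and 1.76 CPM in wild type (log2 fold change 2.48, SE 0.56, adjusted p = 0.000929). Col6a4 (chr9:105989454-106096783) was higher in the callosum, at 0.206, 1.95, 2.74, 4.67 and 6.62 CPM against 0.153, 0.209, 0.237 and 0.444 CPM in wild type (log2 fold change -3.63, SE 0.71, adjusted p = 0.000233). In the knockout Col6a4 ran from 1.73 to 5.08 with a median of 3.18 CPM in callosum and measured 0.0426, 0.214, 0.361, 0.418 and 0.571 CPM in nerve (log2 fold change -3.40, SE 0.63, adjusted p = 9.4e-05). Its wild-type ranges overlapped through callosum library WT_CCg_28, which had 0.206 CPM. Col6a5 was also higher in the callosum, at 2.97, 5.82, 10.7, 12.03 and 15.2 CPM against 0.230, 0.669, 1.06 and 2.82 CPM in wild type (log2 fold change -2.98, SE 0.83, adjusted p = 0.00512) and with a log2 fold change of -2.44 in knockout. The beaded filament class thus had 3 of 6 genes called higher and 2 called lower in the nerve in both genotypes.

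The FACIT collagens do not form fibrils of their own and attach to the surface of others. Type IX, known from cartilage, where it coats type II fibrils, was divided by chain. Col9a2 (chr4:121039385-121055322) measured 6.33, 6.38, 7.54, 8.15 and 8.34 CPM in wild-type callosum and 45.53, 65.4, 75.99 and 82.8 CPM in wild-type nerve (log2 fold change 3.20, SE 0.22, adjusted p = 2.57e-10). Its level in the knockout ran from 3.66 to 6.28 with a median of 5.37 CPM in callosum and was 58.1, 68.6, 84.501, 85.501 and 129 CPM in nerve (log2 fold change 4.07, SE 0.20, adjusted p = 1.88e-12). Col9a3 (chr2:180597790-180622189) went the other way, at 52.6, 61.4, 67.2, 73.47 and 74.54 CPM against 31.46, 36.2, 36.6 and 42.3 CPM in wild type, with a log2 fold change of -0.85 (SE 0.16) that did not reach the fold threshold although its adjusted p was 0.00012. Every wild-type callosum library was above every wild-type nerve library for Col9a3, which overlaps Tcfl5 on the opposite strand. In the knockout its ranges overlapped, at 44.5 to 74.8 CPM in callosum and 33.1 to 48.3 CPM in nerve, without a call. Its knockout log2 fold change lay between -0.46 and -0.25 under the alternative settings. Col9a1 was called higher in the nerve in the knockout (1.43) and lay just under the threshold in wild type at 0.98. The wild-type value reached the threshold without callosum library WT_CCg_28 (1.001), WT_CCg_30 (1.03) or WT_CCg_717652 (1.0002) and without nerve library WT_ON_700858 (1.01), WT_ON_717652 (1.09) or WT_ON_719857 (1.04).

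Col12a1 (chr9:79598991-79718831), a FACIT collagen that binds type I fibrils, measured 4.66, 7.69, 9.03, 9.19 and 11.45 CPM in wild-type callosum and 53.1, 67.9, 89.96 and 104 CPM in wild-type nerve (log2 fold change 3.22, SE 0.38, adjusted p = 9.33e-07). In the knockout it ran from 5.27 to 24.6 with a median of 16.4 CPM in callosum and measured 74.53, 78.2, 94.2, 97.48 and 120.1 CPM in nerve (log2 fold change 2.56, SE 0.34, adjusted p = 1.94e-06). Col14a1, Col16a1 and Col22a1 were called higher in the nerve in both genotypes, with log2 fold changes of 2.04 and 2.27, 2.11 and 2.35, and 2.12 and 2.45. Of these Col16a1 had the highest levels, 18.4, 24.7, 27.8, 30.3 and 32.2 CPM in wild-type callosum and 88.6, 96.3, 121 and 153 CPM in wild-type nerve. Col20a1 was not called, at 0.40 in wild type (0.038 without nerve library WT_ON_700858) and 0.80 in knockout. Col19a1 (chr1:24261890-24587472), a collagen that some brain neurons make, was the only gene of its class called higher in the callosum. It measured 0.959, 2.67, 2.97, 3.89 and 8.87 CPM in wild-type callosum and 0.0384, 0.0836, 0.0949 and 0.178 CPM in wild-type nerve (log2 fold change -5.26, SE 0.78, adjusted p = 1.12e-05). Its knockout levels ran from 2.35 to 10.1 with a median of 7.16 CPM in callosum and were 0, 0.0401, 0.209, 0.213 and 0.299 CPM in nerve (log2 fold change -5.32, SE 0.67, adjusted p = 8.68e-07). The nerve levels amount to a few reads a library, so the fitted fold changes depend on the prior count.

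The short-chain network collagens of type VIII are known from vessel walls and the cornea. Col8a1 (chr16:57624258-57754737) measured 0.414, 0.820, 0.982, 0.986 and 1.77 CPM in wild-type callosum and 22.2, 29.8, 38.2 and 42.4 CPM in wild-type nerve (log2 fold change 5.01, SE 0.40, adjusted p = 3.3e-09). Knockout libraries ran from 0.405 to 2.24 with a median of 0.960 CPM in callosum and were 25.3, 25.7, 27.2, 34.2 and 41.2 CPM in nerve (log2 fold change 4.68, SE 0.35, adjusted p = 9.26e-10). Col8a2, its partner chain, was already at 9.47, 23.2, 23.9, 31.2 and 38.05 CPM in wild-type callosum and reached 29.9, 39.9, 41.2 and 42.4 CPM in wild-type nerve, which was not called (log2 fold change 0.61, SE 0.33, adjusted p = 0.134). In the knockout it was called (log2 fold change 1.08, SE 0.30, adjusted p = 0.00404), but not without callosum library KO_CCg_693451 (0.96) or KO_CCg_693452 (0.95) or nerve library KO_ON_48038A7 (0.93).

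The multiplexins stand in the basement membrane zone, and the end of the type XVIII chain is released as endostatin. Col18a1 (chr10:77052178-77166548) measured 4.72, 4.73, 5.13, 6.88 and 8.52 CPM in wild-type callosum and 72.4, 80.8, 94.4 and 124 CPM in wild-type nerve (log2 fold change 3.94, SE 0.26, adjusted p = 2.04e-10). Its level in the knockout ran from 3.28 to 6.88 with a median of 4.37 CPM in callosum and was 79.8, 82.7, 121, 129.8 and 151 CPM in nerve (log2 fold change 4.58, SE 0.24, adjusted p = 4.82e-12). The gene overlaps Slc19a1 on the opposite strand. Col15a1 measured 6.03, 7.33, 7.57, 8.51 and 17.8 CPM and 21.3, 26.1, 27.8 and 44.97 CPM in the same wild-type groups and was called in both genotypes (1.66 and 1.20). Col7a1, the anchoring fibril collagen of skin, was called in the knockout (1.39) and not in wild type (0.56, and 0.16 without nerve library WT_ON_700858), with 4.01, 4.67, 6.496, 6.65 and 8.96 CPM in wild-type callosum and 4.65, 6.75, 9.20 and 15.6 CPM in wild-type nerve. Col26a1, at 4.82, 5.43, 6.34, 7.37 and 7.97 CPM against 5.66, 10.3, 11.9 and 12.1 CPM in wild type, was not called. Neither was Col28a1, at 0.154, 0.193, 0.317, 0.343 and 0.372 CPM against 0.230, 0.474, 0.502 and 1.11 CPM, although it passed in wild type without nerve library WT_ON_700858 (1.32).

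The transmembrane collagens sit in the cell surface. Col13a1 (chr10:61838236-61979108), known from cell adhesion sites and the neuromuscular junction, measured 0.548, 0.734, 1.07, 1.13 and 1.20 CPM in wild-type callosum and 14.8, 21.04, 21.49 and 22.1 CPM in wild-type nerve (log2 fold change 4.38, SE 0.26, adjusted p = 4.52e-11). In the knockout it ran from 0.307 to 1.03 with a median of 0.781 CPM in callosum and measured 14.3, 19.3, 20.7, 21.9 and 28.53 CPM in nerve (log2 fold change 4.76, SE 0.24, adjusted p = 2.47e-12). Col23a1 was called higher in the nerve in both genotypes (1.68 and 1.36), at 8.08, 10.7, 13.9, 19.2 and 23.53 CPM against 28.2, 34.04, 44.8 and 86.9 CPM in wild type. Col17a1, the hemidesmosome collagen, was under 1 CPM in every library and was called higher in the callosum in wild type (-1.999) but not in knockout (-0.87). Col25a1 (chr3:130131501-130599877), a membrane collagen that neurons make and that was found in amyloid plaques, measured 22.8, 27.2, 34.01, 53.9 and 63.999 CPM in wild-type callosum and 22.1 to 147 with a median of 57.02 CPM in knockout callosum. Its nerve levels were 5.88, 6.53, 9.18 and 54.2 CPM in wild type and 6.61, 7.06, 8.86, 12.1 and 13.6 CPM in knockout. Wild-type nerve library WT_ON_717652, at 54.2 CPM, stood within the callosum range, and the other 8 nerve libraries were all below it. The difference was called in the knockout (log2 fold change -2.86, SE 0.59, adjusted p = 0.000333) and not in wild type (log2 fold change -1.10, SE 0.61, adjusted p = 0.147), but without nerve library WT_ON_717652 the wild-type log2 fold change was -2.49 with a call.

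Markers of neurons and ependyma were higher in the callosum libraries, as were the collagen genes Col19a1, Col6a4, Col6a5 and, with a call in a single genotype each, Col17a1 and Col25a1. The sum of 8 neuron markers was 986 to 4089 CPM in the callosum and 102 to 307 CPM in the nerve libraries, and all 8 were called lower in the nerve in both genotypes. Within the callosum, library WT_CCg_28 of the wild type had the lowest neuron sum (986 CPM) together with the lowest Col19a1 (0.959 CPM) and Col6a4 (0.206 CPM) of the callosum, while its Col17a1 (0.411 CPM) lay within the range of the others, 0.299 to 0.786 CPM. Knockout callosum library KO_CCg_719856 had the highest neuron sum (4089 CPM) with 9.40 CPM of Col19a1 and 102 CPM of Col25a1, and knockout library KO_CCg_27, with a lower neuron sum of 2631 CPM, had the highest Col25a1 (147 CPM). In the nerve, wild-type library WT_ON_717652 had a neuron sum of 262 CPM with its 54.2 CPM of Col25a1, whereas knockout library KO_ON_719856 had a neuron sum of 307 CPM with 8.86 CPM. The 4 ependyma markers, all called lower in the nerve in both genotypes, summed to 86.4 to 304 CPM in callosum and 32.8 to 59.5 CPM in nerve. Wild-type callosum library WT_CCg_30 had the highest ependyma sum (304 CPM), beside the high choroid plexus sum given above, with 15.2 CPM of Col6a5, and knockout library KO_CCg_29 had the next (273 CPM) with the highest Col6a5 of all libraries, 24.8 CPM. Wild-type library WT_CCg_685232 had the lowest ependyma sum of the callosum (86.4 CPM) with the lowest Col6a5 there (2.97 CPM). These are values side by side, and the part of neurons or ependyma in the collagen levels was not tested.

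The make-up of the collagen transcript pool differed between the tissues. When CPM is divided by transcript length, so that genes can be compared, the fibrillar class made up 22.4% to 35.3% of the collagen transcripts of the wild-type callosum libraries and 52.4% to 58.0% of those of the wild-type nerve libraries. In the knockout the shares were 17.8% to 33.5% and 51.3% to 56.2%. Col1a2 led the nerve pool with 16.03% to 21.4% of it in wild type, followed by Col1a1 with 13.7% to 16.04%, Col3a1 with 10.2% to 12.8% and Col6a2 with 10.1% to 12.9%, whose ranges overlap. In wild-type callosum Col11a2 (11.5% to 22.6%), Col9a3 (11.3% to 19.3%) and Col25a1 (5.90% to 17.1%) led, also with overlapping ranges, while Col1a2 stood at 1.86% to 2.95%. The FACIT class fell from 20.3% to 29.2% in wild-type callosum to 8.07% to 10.6% in wild-type nerve, and the transmembrane class from 7.78% to 19.9% to 1.85% to 6.09%. The basement membrane class held 12.5% to 13.98% of the wild-type callosum pool and 6.21% to 8.63% of the nerve pool, although 5 of its 6 genes were higher in CPM in the nerve.

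**Figure D3:**
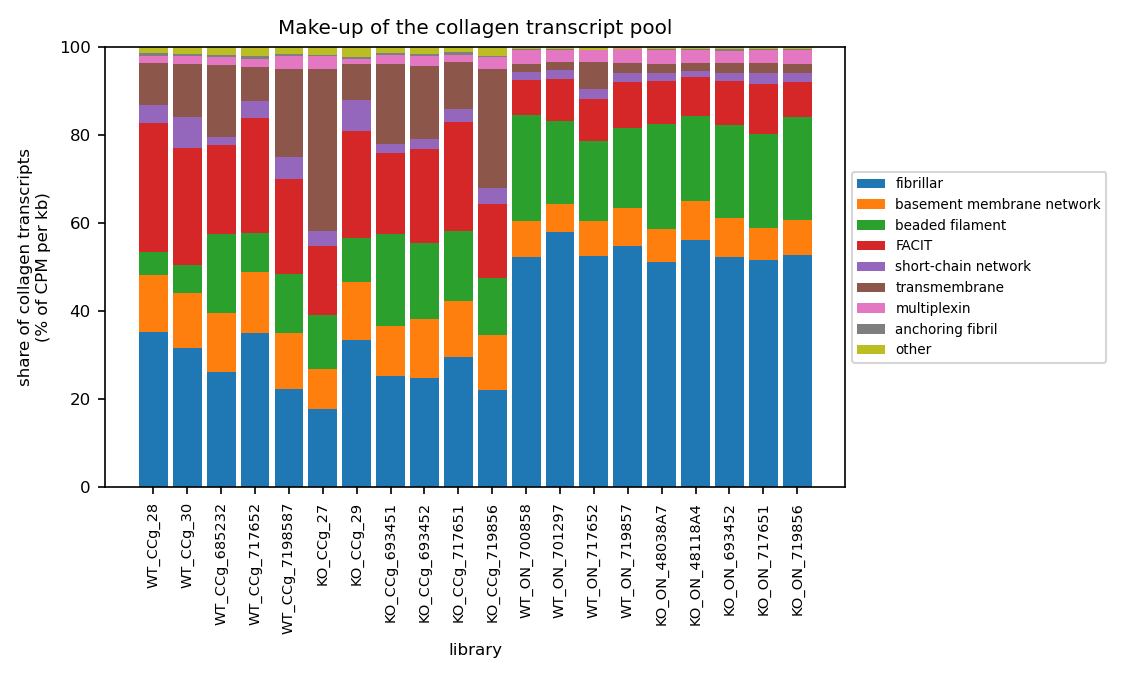
Share of each collagen class in the collagen transcripts of each library, in percent of the sum of CPM per kb over the 44 genes. The fibrillar class takes 51.3% to 58.0% of every optic nerve library and 17.8% to 35.3% of every corpus callosum library, and the callosum bars vary more among themselves, most of all in the transmembrane class.

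Ratios between chains of one type, or of types that share fibrils, also differed between the tissues. The level of Col9a2 per kb was 0.107 to 0.126 times that of Col9a3 in wild-type callosum and 1.12 to 2.38 times in wild-type nerve. Col8a1 was 0.0152 to 0.159 times Col8a2 in wild-type callosum and 0.614 to 0.848 times in wild-type nerve. Col4a3 was 0.111 to 0.412 times Col4a4 in wild-type callosum and 0.802 to 1.18 times in wild-type nerve. Col6a1 exceeded Col6a2 1.91-fold to 6.29-fold in wild-type callosum, and was 0.723 to 0.824 times its level in wild-type nerve. Col1a1 was 0.325 to 0.600 times Col1a2 in wild-type callosum and 0.673 to 0.878 times in wild-type nerve. The knockout ranges of these 5 ratios were likewise apart between the tissues, and for none of them were the genotypes apart within a tissue. Ratios were not tested, and the lengths behind them are those of 1 transcript a gene.

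**Figure D4:**
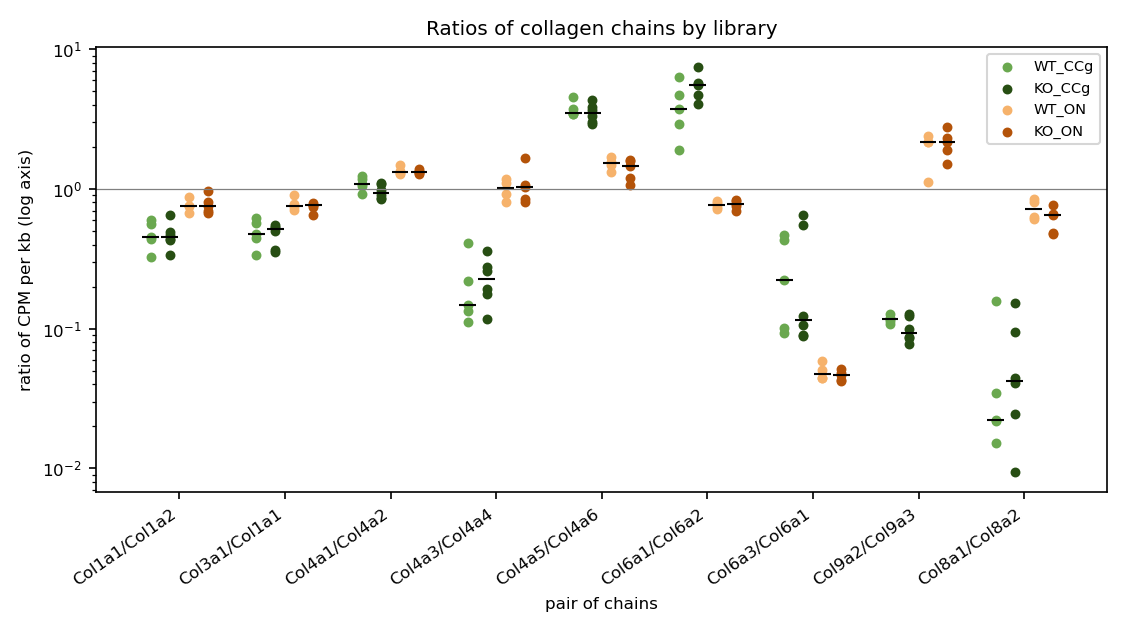
Ratio of CPM per kb for 9 pairs of collagen chains, 1 point a library, on a log axis, with a line at each group's median. In the Col9a2 to Col9a3 pair the callosum libraries lie between 0.0773 and 0.126 and the nerve libraries between 1.12 and 2.79.

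Genes that make, bind, cut or anchor collagen differed between the tissues too. Of 30 genes for collagen synthesis and crosslinking, 14 were called higher in the nerve and 1 lower in wild type (median log2 fold change 0.97), and 16 and 1 in knockout (1.19). Loxl2, a lysyl oxidase that crosslinks collagen, measured 2.66, 3.16, 3.18, 3.33 and 3.498 CPM in wild-type callosum and 56.05, 56.1, 60.3 and 86.6 CPM in wild-type nerve (log2 fold change 4.34, SE 0.18, adjusted p = 3.33e-13). Pcolce, which speeds the trimming of fibrillar procollagen, and Loxl1 had log2 fold changes of 5.07 (SE 0.28) and 3.64 (SE 0.20). The gene called lower was Adamts3, which trims procollagen ends, with -3.35 (SE 0.38); it was singled out after its value was seen. Of 12 collagen receptors 11 were tested, and 7 in wild type and 8 in knockout were called higher in the nerve, none lower. The 3 with the smallest p were Mrc2, which takes up collagen into cells (4.42, SE 0.23), Ddr2, a receptor kinase for fibrillar collagen (2.23, SE 0.16), and Adgrg6, a receptor known to bind type IV collagen (4.87, SE 0.37). Of 11 genes for collagen cleavage and its inhibitors, 9 were called higher in each genotype, among them Mmp2 (2.51, SE 0.14), Mmp14 (2.20, SE 0.16) and the inhibitor Timp3 (2.64, SE 0.16). Of 16 basement membrane partners, 10 in wild type and 12 in knockout were called higher and 0 and 1 lower. Nid1, which links laminin to type IV collagen, measured 12.2, 12.7, 12.9, 13.4 and 15.99 CPM in wild-type callosum and 165, 186, 226 and 262 CPM in wild-type nerve (log2 fold change 3.97, SE 0.15, adjusted p = 1.02e-13), and Sparc and Lama4 had log2 fold changes of 3.26 (SE 0.13) and 3.39 (SE 0.18). The median log2 fold changes of the 4 lists in wild type were 0.97, 1.71, 2.51 and 1.94, beside -0.03 over all genes. By the same rule 13% of all tested genes were called higher and 13.2% lower in the nerve in wild type, and 14.9% and 15.2% in knockout.

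Knockout and wild type were compared within each tissue to ask which transcripts follow the genotype. In the corpus callosum 0 of 41 tested collagen genes were called at an adjusted p under 0.05 by edgeR's quasi-likelihood test, where 0.0387% of all 15519 tested genes were (0.0129% higher and 0.0258% lower), Zdhhc9 among them. At an unadjusted p under 0.05 there were 4 collagen genes, beside 11.6% of all tested genes. DESeq2 called 0 of the 40 it gave an adjusted p, beside 1.17% of all such genes (0.355% higher and 0.811% lower). When libraries were weighted by quality limma-voom called 4 of 41 collagen genes, or 9.76%, beside 18.1% of all tested genes (9.58% higher and 8.5% lower). The median log2 fold change was -0.04, beside -0.01 over all genes. For 27 of the 41 genes the 95% interval of the log2 fold change lay within 1 of 0 on either side. Over all tested genes this held for 83.2%.

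The smallest p in the callosum belonged to Col9a2, a chain of type IX collagen. It measured 3.66 to 6.28 with a median of 5.37 CPM in the 6 knockout and 6.33, 6.38, 7.54, 8.15 and 8.34 CPM in the 5 wild-type libraries, so that all knockout libraries lay below all wild-type ones, the highest knockout library only just (log2 fold change -0.55, SE 0.16, adjusted p = 0.293, by edgeR's quasi-likelihood test). It was the only collagen gene whose ranges were apart, 1 of 41 tested, where 0.902% of all tested genes had ranges apart, 0.696% with the knockout below and 0.206% with it above. Col9a1 measured 1.85 to 3.11 with a median of 2.11 CPM in knockout and 2.34, 2.90, 3.18, 3.22 and 3.49 CPM in wild type (log2 fold change -0.40, SE 0.18, adjusted p = 0.425), and Col9a3 measured 44.51 to 74.8 with a median of 50.2 CPM in knockout and 52.6, 61.4, 67.2, 73.47 and 74.54 CPM in wild type (log2 fold change -0.30, SE 0.15, adjusted p = 0.463). The knockout and wild-type ranges of these last 2 genes overlapped. By limma-voom with sample quality weights, which called 2806 genes in all against 6 by edgeR, all 3 passed, with log2 fold changes of -0.58 for Col9a2 (adjusted p = 0.0228), -0.58 for Col9a1 (adjusted p = 0.0285) and -0.49 for Col9a3 (adjusted p = 0.0287). The remaining gene it called was Col6a1, at 1.38 (adjusted p = 0.0361) beside 0.63 (SE 0.46) by edgeR, and without wild-type library WT_CCg_685232 edgeR gave 1.17 with no call. Markers of other cells stood beside these values. The oligodendrocyte sum was 31347 to 61322 CPM in knockout and 49996 to 83554 CPM in wild-type callosum, and the neuron sum 1102 to 4089 and 986 to 2884 CPM. The microglia sum was 236 to 295 CPM in knockout and 307 to 343 CPM in wild type, so that, as for Col9a2, all knockout libraries lay below all wild-type ones; no other marker list reported here had its callosum ranges apart. None of the 8 oligodendrocyte, 8 neuron and 6 microglia markers was called, and their part in the collagen values was not tested.

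Of the 4 collagen genes with an unadjusted p under 0.05 in the callosum, Col24a1 and Col12a1 had estimates above 0. Col24a1, a minor fibrillar collagen, measured 0.565 to 3.98 with a median of 2.64 CPM in knockout and 0.343, 0.718, 1.07, 1.31 and 1.43 CPM in wild-type callosum (log2 fold change 1.18, SE 0.49, adjusted p = 0.408). Col12a1 measured 5.27 to 24.6 with a median of 16.4 CPM in knockout and 4.66, 7.69, 9.03, 9.19 and 11.45 CPM in wild-type callosum (log2 fold change 0.88, SE 0.40, adjusted p = 0.425). The groups overlapped for both genes. The callosum sample numbers come in 2 formats, 4 libraries with 2-digit numbers and 7 with longer ones. The ranges of the 2 formats were apart for 6 of 41 tested collagen genes, or 14.6%, beside 12.9% of all tested genes (5.03% with the longer numbers above and 7.91% below). Col24a1 was 0.343 to 0.818 CPM in the 2-digit libraries and 1.07 to 3.98 CPM in the others, and Col5a1 was 3.63 to 11.3 and 11.4 to 36.8 CPM. Col4a2 and Col19a1 were also higher in all libraries with longer numbers, and Col4a3 and Col4a4 in all with 2-digit numbers. Within the 2-digit libraries alone the Col12a1 difference was -0.044 and that of Col5a1 -0.017, against 0.88 and 0.99 over all callosum libraries. Within the longer-numbered libraries Col5a1 was 22.6 to 36.8 CPM in knockout and 11.4 to 14.3 CPM in wild type, with ranges apart. Those of Col24a1 were also apart there, at 2.41 to 3.98 and 1.07 to 1.43 CPM. So were those of Col4a3, at 0.670 to 0.903 and 0.455 to 0.594 CPM. With the knockout below, the ranges of Col9a2 were apart there too, at 3.66 to 6.28 and 6.33 to 8.34 CPM. Those of Col12a1 overlapped there, at 9.96 to 24.6 and 7.69 to 11.45 CPM. The share of all tested genes with genotype ranges apart within the longer-numbered libraries was not computed. No collagen gene was called in either format alone. In the 2-digit format Zdhhc9 was not called either, at a log2 fold change of -2.02, so the lack of calls there cannot show a lack of change. What the number format stands for is not given in the sources used here. No nerve library has a 2-digit number, and the tissue comparisons were not run by format. Col4a4 was 5.21 to 9.12 CPM in the 2-digit and 1.70 to 4.84 CPM in the longer-numbered callosum libraries. Over the nerve libraries it was 2.04 to 4.45 CPM.

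In the optic nerve 0 of 40 tested collagen genes were called by edgeR's quasi-likelihood test, where 0.0129% of all 15556 tested genes were. At an unadjusted p under 0.05 there were 0 collagen genes, beside 5.35% of all tested genes. DESeq2 called 0 of 39, beside 0.225% of all genes it gave an adjusted p (0.0902% higher and 0.135% lower), and limma-voom with quality weights called 0 of 40, beside 0.0129%. The median log2 fold change of the collagen genes was 0.16, beside 0.01 over all genes. Of their 40 intervals 32 lay within 1 of 0, beside 86.5% over all tested genes. The ranges of knockout and wild type overlapped for all 44 genes, where 2.06% of all tested genes had ranges apart (1.14% with the knockout above, 0.926% below). The abundant fibrillar genes had estimates close to 0, with 95% intervals of -0.36 to 0.54 for Col1a1, -0.36 to 0.54 for Col1a2 and -0.50 to 0.50 for Col3a1 on the log2 scale. The 4 genes with the smallest p were Col24a1, Col28a1, Col6a6 and Col5a1, all with an adjusted p of 0.853. Col24a1 measured 0.229, 0.642, 0.642, 1.93 and 2.69 CPM in knockout and 0.178, 0.285, 0.691 and 0.836 CPM in wild type (log2 fold change 1.28, SE 0.69, and 0.75 without knockout library KO_ON_693452). Col28a1 measured 0.120, 0.213, 0.299, 0.366 and 0.514 CPM in knockout and 0.230, 0.474, 0.502 and 1.11 CPM in wild type (log2 fold change -0.97, SE 0.53, and -0.45 without wild-type library WT_ON_717652). Col6a6 and Col5a1 had log2 fold changes of 0.63 (SE 0.36) and 0.31 (SE 0.18), with 1.20, 1.28, 2.26, 2.78 and 3.26 CPM in knockout and 0.879, 1.15, 1.69 and 1.76 CPM in wild type for Col6a6.

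**Figure D5:**
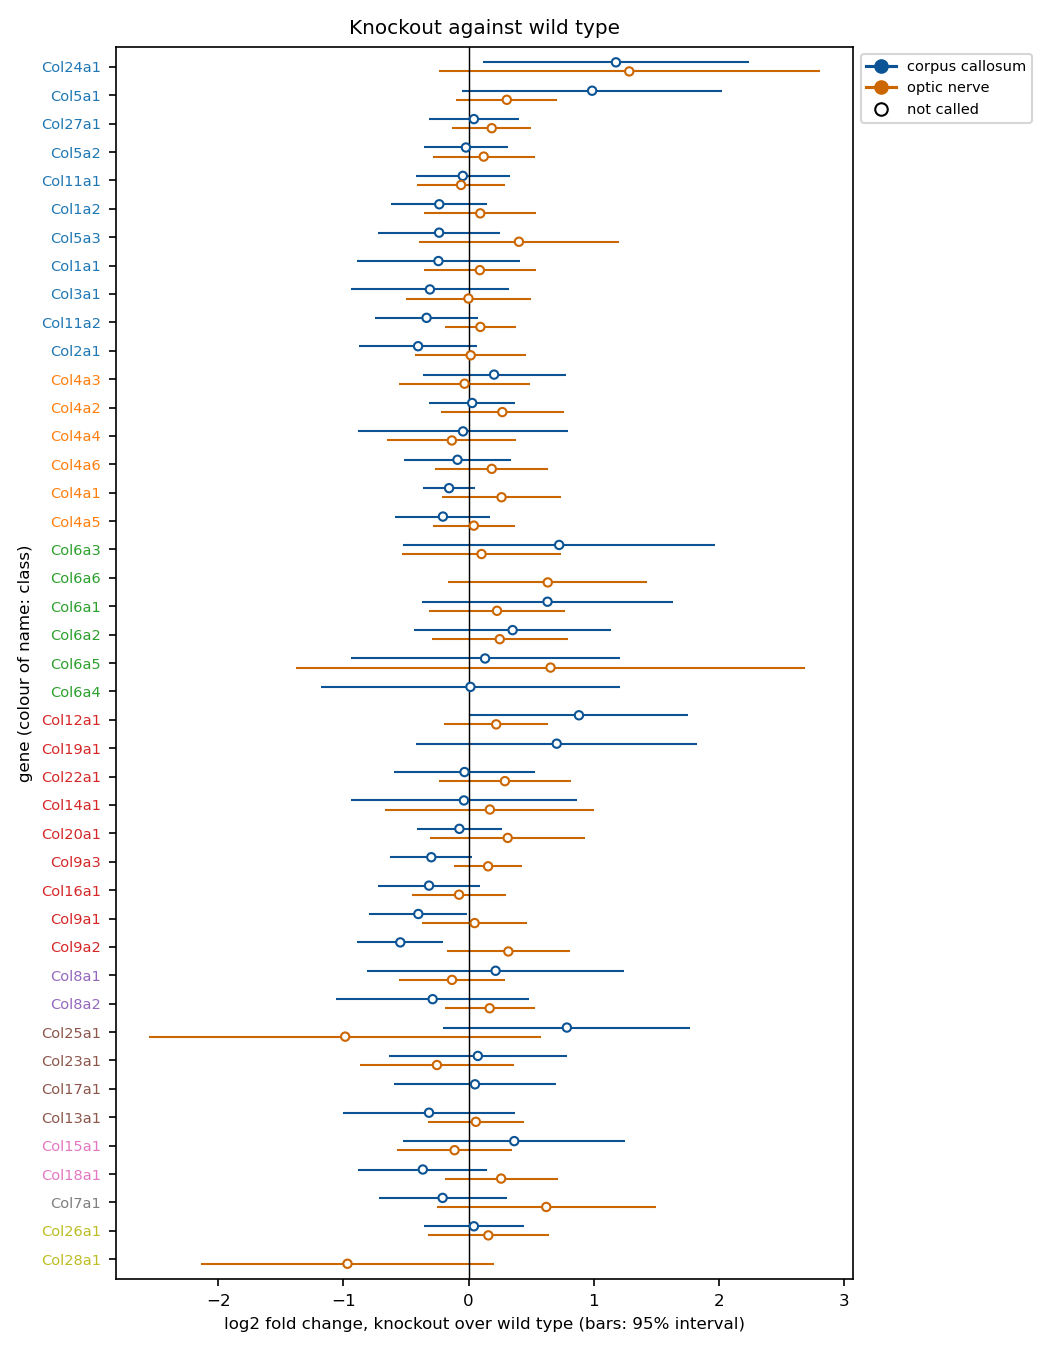
Log2 fold change of knockout over wild type for the collagen genes tested in corpus callosum (blue) and optic nerve (orange), with 95% intervals. All points are open, since none was called in either tissue; the largest upward estimate in the callosum is that of Col24a1 (1.18).

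The difference between the tissues in the knockout effect was tested in the fit of all 20 libraries. Of 43 collagen genes 0 were called by edgeR's quasi-likelihood test, as were 0% of all 16440 genes. DESeq2 called 0 collagen genes, limma-voom with quality weights 0, both beside 0 of all genes, and 4 of the 43 had an unadjusted p under 0.05, beside 6.84% of all tested genes. The 3 with the smallest p were Col9a2 (difference of the log2 fold changes, nerve minus callosum, 0.87, SE 0.28), Col28a1 (-1.59, SE 0.68) and Col9a3 (0.46, SE 0.21). Their adjusted p was 0.728 for all 3. The same test covers the tissue contrasts of the 2 genotypes. The 6 genes called in a single genotype, Col17a1 in wild type and Col7a1, Col8a2, Col9a1, Col2a1 and Col25a1 in knockout, are therefore not shown to differ between the genotypes. For Col25a1 the difference was -1.76 (SE 0.82), and -0.37 without wild-type nerve library WT_ON_717652.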

How the data were processed

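Messenger RNA was sequenced from 20 libraries of mouse corpus callosum and optic nerve with a stranded mRNA preparation, per the labels' protocols. The authors deposited a gene table of estimated counts, which need not be whole. The file's name credits it to kallisto, whose version, annotation and strand setting are not given in the files and labels used. The build was mm10, per the submitters' processing notes. Every column matched 1 sample, and 0 columns of per-sample values were without a sample. Library totals ran from 15401130 to 26095622.

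Counts were rounded and tested with edgeR 4.0.16 (quasi-likelihood, robust, TMM scaling, filterByExpr with a minimum count of 10 and a minimum total of 15) in R 4.3.3, with Benjamini-Hochberg adjustment over all genes tested. Genotypes were compared within a tissue, and tissues and the interaction in 1 fit of 20 libraries, without a replicate block. For tissues a call also took a change of 1 or more, up or down, in log2. The scripts were tested on simulated counts. Levels are CPM scaled with TMM factors, and levels per kb use the GENCODE M21 coding transcript with the longest coding sequence. Alternatives used limma 3.58.1, DESeq2 1.42.0, other scalings and filters, number formats and leaving out each library. Python 3.11.15, pandas 2.3.3, numpy 2.4.6 and matplotlib 3.10.9 were used for tables and plots.

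The collagen genes and all lists were chosen with earlier results of these data known. A further marker list is not reported here. Full statistics were set by rule for the 12 called members with the largest absolute tissue log2 fold change at a mean log2 CPM of at least 0 in wild type, for the 4 members with the smallest p in each genotype comparison and the 3 with the smallest p in the interaction. Levels were set by rule for the 2 highest members of each class. Other members with fold changes were chosen after their values were seen.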

Additional observations from a re-analysis of the deposited data

Results flagged for a closer look

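In groups of 4 to 6 libraries, 9 of 151 sets of collagen levels at a mean of at least 1 CPM held a library set far apart from the others of its group by Dixon's criterion, which chance meets in about 1 in 20 sets. Among fibrillar genes, Col5a1 was 3.63 CPM in wild-type callosum library WT_CCg_28 and 11.3 to 14.3 CPM in the others of that group, and Col11a1 was 17.0 CPM in knockout nerve library KO_ON_719856 and 11.3 to 12.5 CPM in the others. Among basement membrane and multiplexin genes, Col4a3 was 3.72 CPM in knockout nerve library KO_ON_48118A4 against 2.34 to 2.69 CPM, and Col15a1 was 17.8 CPM in wild-type callosum library WT_CCg_7198587 against 6.03 to 8.51 CPM. Col6a5 was 24.8 CPM in knockout callosum library KO_CCg_29 against 4.47 to 11.6 CPM. Col14a1, which binds type I fibrils, was set apart in 2 groups, at 3.76 CPM in wild-type callosum library WT_CCg_685232 against 1.12 to 1.70 CPM and at 18.9 CPM in knockout nerve library KO_ON_48038A7 against 4.82 to 7.96 CPM. Among transmembrane genes, Col13a1 was 14.8 CPM in wild-type nerve library WT_ON_719857 against 21.04 to 22.1 CPM. Col25a1 was 54.2 CPM in wild-type nerve library WT_ON_717652 against 5.88 to 9.18 CPM.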

How the results depend on the processing

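The number of collagen genes called stayed within 1.5 times its value under every alternative run for 4 of the 5 comparisons: 28 to 34 for the tissues in wild type (28 to 30 with 1 library left out), 30 to 37 in knockout (31 to 33), 0 for the genotypes in the nerve and 0 for the interaction. In the callosum genotype comparison it was 0 in 21 of 22 alternatives and 4 by limma-voom with sample quality weights, which called 2806 genes in all (18.1% of those tested) where edgeR called 6; the cause was not tested. The signs of 3 differences that were not called turned. In the callosum, Col12a1 was -0.044 and Col5a1 -0.017 in the 2-digit number format alone, where Zdhhc9 kept its size at -2.02 without a call (adjusted p = 0.535 by edgeR, with 4 libraries). Between the tissues in knockout, Col27a1 (-0.04) was 0.066 without callosum library KO_CCg_717651, 0.0055 without nerve library KO_ON_717651 and 0.00065 without nerve library KO_ON_719856.

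For the genotype comparisons no paired analysis was possible, because the genotype groups share no sample numbers. Between tissues 4 numbers recur, and the deviations of same-numbered libraries correlated at 0.018, -0.15 and 0.13 in knockout and -0.053 in wild type, so the numbers were not taken to pair the libraries. The labels do not say whether a shared number marks 1 animal. Not every library correlated best with its own number. With the number as a random replicate block, 29 collagen genes were called in wild type, 32 in knockout and 0 in the interaction. A fixed replicate block over 3 knockout numbers called 30, without Col4a2 (0.87), Col6a5 (-2.98, adjusted p = 0.186 by edgeR) and Col7a1 (1.24, adjusted p = 0.062 by edgeR).

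Genes under about 1 CPM, such as Col17a1 and Col19a1 in the nerve, rest on few counts.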
